A study of Homo sapiens and Mus musculus with 20 samples.

Results

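Satb1 sites with a pair of consensus motifs were examined for the distance between the motifs, measured against the turn of the DNA helix. A member was a peak of full-length Satb1 in MCF10A cells with exactly 2 matches to the 7-bp Satb1 consensus (pyrimidine, T, A, A or T, T, A, purine) in 400 bp at the peak midpoint, with the starts of the matches 8 to 37 bp apart. Of 22877 full-length peaks, 6598 held exactly 2 matches and 2665 were members, while 274 of the 6598 had matches closer than 8 bp and 3659 had matches more than 37 bp apart. Spacings of 8 to 12, 18 to 22 and 28 to 32 bp were called on-turn, because they place the motifs near whole turns of the helix, and spacings of 13 to 17, 23 to 27 and 33 to 37 bp were called off-turn. No measured strength entered the choice of members, but the consensus itself had been derived from these same peaks by the study, so the presence of matches in peaks is not a result here.

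MCF10A is a human mammary gland epithelial line that lacks native Satb1, and each MCF10A ChIP-seq library used here came from cells carrying a Satb1–eGFP fusion from a cumate-inducible lentiviral vector, pulled down with an antibody against GFP. The 5 peak lists covered the full-length fusion, a fusion without the homeodomain (∆HD), a fusion of the N-terminal domain and CUT1 alone (N-C1), and the full-length fusion after 2 h of camptothecin or of ICRF-193. ATAC-seq peak lists of the same line without and with Satb1 gave the accessible regions. There was 1 list per condition, the strength of a peak was the fold enrichment over background deposited with it, and the sources used here give a range of sequencing depth for the ChIP-seq libraries as a whole but not the depth of each list, nor how replicates entered a list. There was therefore no replicate check and no p-value, and all 95% intervals cover counting error over peaks or pairs only.

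Satb1 is a chromatin organizer that binds A/T-rich DNA. Its CUT domains make the sequence-specific contacts, its homeodomain adds to the selection of sites, and its N-terminal domain joins Satb1 molecules into dimers and tetramers, so that a single complex carries several DNA-binding domains. In B-form DNA, motifs separated by whole helical turns lie on the same face of the double helix, and motifs separated by an additional part of a turn lie on different faces. Camptothecin traps topoisomerase I and ICRF-193 inhibits topoisomerase II, the enzymes that relax DNA supercoils.

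The following sequences are a leading member by fold enrichment of each of the 6 spacing windows, shown from the first match to the last on the plus strand of hg19, because they show what each spacing looks like in DNA. Capitals mark the 2 consensus matches and lower case marks the spacer.
8 to 12 bp, on-turn, chrX:35984477-35984493: TTAATAAtttTTATTAA
13 to 17 bp, off-turn, chr1:52336454-52336474: TTAATAAttagtaaTTAATAA
18 to 22 bp, on-turn, chr12:73853668-73853695: CTATTAGtattactactactaCTAATAG
23 to 27 bp, off-turn, chr3:172446507-172446539: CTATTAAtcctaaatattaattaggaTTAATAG
28 to 32 bp, on-turn, chr11:55816103-55816139: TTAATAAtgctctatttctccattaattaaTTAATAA
33 to 37 bp, off-turn, chr6:138268812-138268852: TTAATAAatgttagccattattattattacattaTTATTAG

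The consensus reads the same on both strands except at its central base, so a match with a central A was taken as pointing forward and one with a central T as pointing backward. Pairs were tandem when both matches pointed the same way, as in the 13 to 17 bp example, convergent when they pointed at each other, as in the 8 to 12 bp example, and divergent when they pointed apart, as in the 18 to 22 bp example. Read in the direction of the central A, the 4 forms of the motif were TTAATAA and TTAATAG and CTAATAA and CTAATAG.

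On-turn spacing was the common state of these sites. Of the 2665 members, 1694 were on-turn and 971 were off-turn, an on-turn share of 63.6% (95% Clopper-Pearson interval 61.7 to 65.4%), although the on-turn and off-turn windows cover equal numbers of spacings. The background came from isolated genomic pairs, which are pairs of matches 8 to 37 bp apart anywhere in hg19 with no further match in 400 bp. Outside full-length peaks 51.7% of 56960 isolated pairs were on-turn, and inside peaks 62.9% of 3046 were.

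Members were most frequent at 9 bp, with 211 peaks, and least frequent at 37 bp, with 38. The count went from 146 at 11 bp to 62 at 16 bp, back to 134 at 20 bp, to 53 at 25 bp, to 98 at 29 bp and to 39 at 36 bp. Counts therefore rose and fell along the spacing with crests near 10, 20 and 30 bp. The on-turn share lay between 57.5% and 72.7% on the 17 chromosomes with at least 50 members, with a median of 62.9%.

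Strength did not follow the same pattern. The on-turn members had a mean fold enrichment of 8.34 (SD 4.41, n = 1694 peaks) and the off-turn members one of 8.44 (SD 4.45, n = 971), a difference of -0.10 (95% interval -0.45 to 0.25). Both medians were 6.91, and the individual peaks ran from 2.95 to 47.5 on-turn and from 2.79 to 35.8 off-turn, so the groups overlapped over nearly their whole range. Within the first turn (8 to 12 against 13 to 17 bp) the difference was -0.01 (95% interval -0.53 to 0.52), within the second it was -0.07 (-0.69 to 0.56) and within the third it was -0.29 (-0.99 to 0.41). When members were divided into 4 equal classes of strength, the on-turn share was 63.9% in the weakest, 62.9% and 65% in the middle classes and 62.5% in the strongest.

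**Figure D1:**
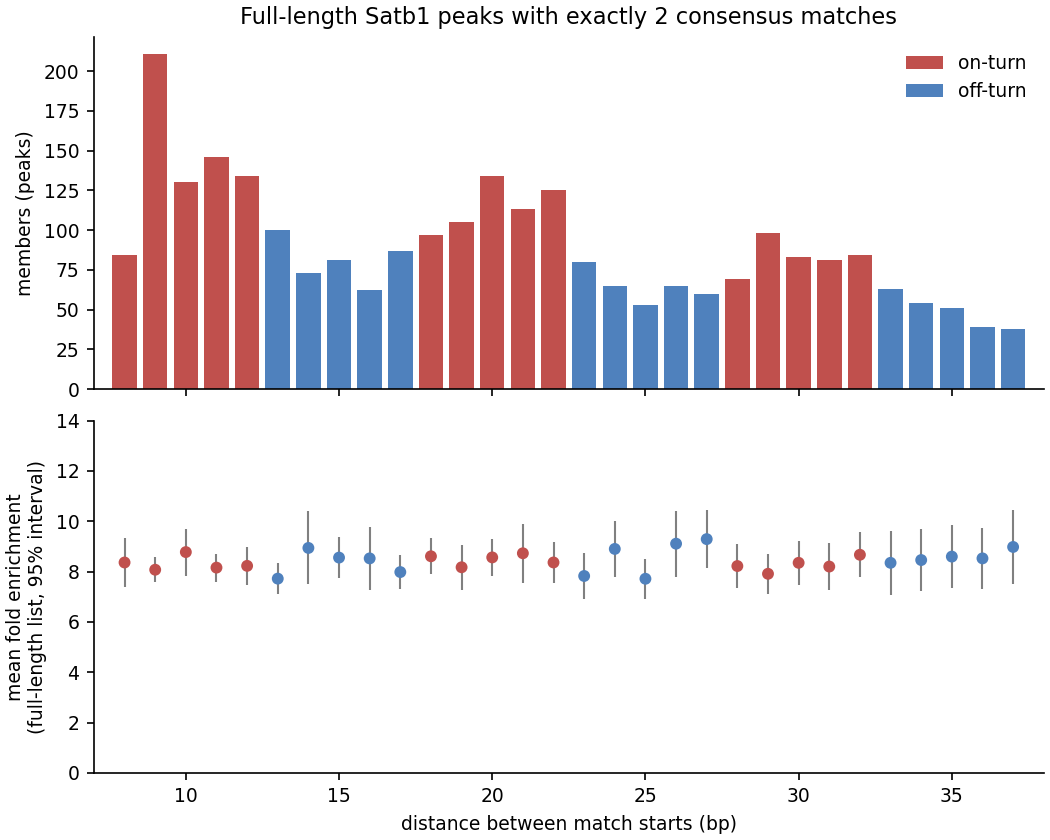
Number of members (top, bars) and their mean fold enrichment in the full-length list with its 95% interval (bottom, points) at each distance between match starts in bp. Red marks on-turn and blue off-turn spacing. Counts peak at 9, 20 and 29 bp, whereas the mean fold enrichments lie in a flat band around 8.34 on-turn and 8.44 off-turn.

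For scale, peaks with exactly 1 match had a mean fold enrichment of 8.07 (n = 3272), peaks with exactly 3 matches one of 9.08 (n = 6621), and peaks with exactly 2 matches more than 37 bp apart one of 7.97 (95% interval 7.83 to 8.10). The members together stood at 8.38 (8.21 to 8.55), above these widely spaced pairs. Peaks with no match in the 400 bp had a mean of 9.57 (9.04 to 10.1, n = 781). Mean strength therefore did not rise steadily with the number of matches. A peak entered the list only after it passed the peak caller, so the strength comparison covers pairs that were already bound well enough to be called.

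The share of pairs that were bound is not limited in that way. Among all 60006 isolated genomic pairs, 5.08% lay wholly inside a full-length peak. The bound share was 6.11% of 31383 on-turn pairs and 3.95% of 28623 off-turn pairs, a difference of 2.16 percentage points (95% Newcombe interval 1.81 to 2.51) and a ratio of 1.55 (1.44 to 1.66). By window it was 6.92% at 8 to 12 bp, 4.67% at 13 to 17 bp, 6.53% at 18 to 22 bp, 3.61% at 23 to 27 bp, 4.76% at 28 to 32 bp and 3.45% at 33 to 37 bp. Each on-turn window was thus above the off-turn window that followed it, and the interval of each stood clear of the next.

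At single spacings the bound share was highest at 10 bp, at 7.82% (95% interval 6.69 to 9.08%), and had further crests of 7.27% (6.16 to 8.50%) at 20 bp and 5.52% (4.52 to 6.66%) at 30 bp. The troughs between them were 4.08% at 16 bp and 2.99% at 24 and 25 bp. The value at 24 bp joined unlike shares, 5.02% in tandem, 1.997% in divergent and 1.17% in convergent pairs. Beyond the members' limit a further crest of 4.83% stood at 44 bp after values of 4.40 to 4.67% from 40 to 42 bp, between 2.62% at 37 bp and 2.04% at 47 bp. A logistic curve with a linear trend and a single wave, fitted to spacings from 8 to 57 bp, was best at a period of 10.55 bp (95% profile interval 10.35 to 10.8 bp). The odds of being bound were 1.75 times higher at the crest of that wave than at its trough, and the first crest lay at 9.98 bp. Limited to pairs whose sequence occurred once, the period was 10.75 bp (10.55 to 11 bp) and the first crest lay at 9.53 bp. Without the spacings of 24 and 32 bp the period was 10.55 bp (10.35 to 10.75 bp).

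**Figure D2:**
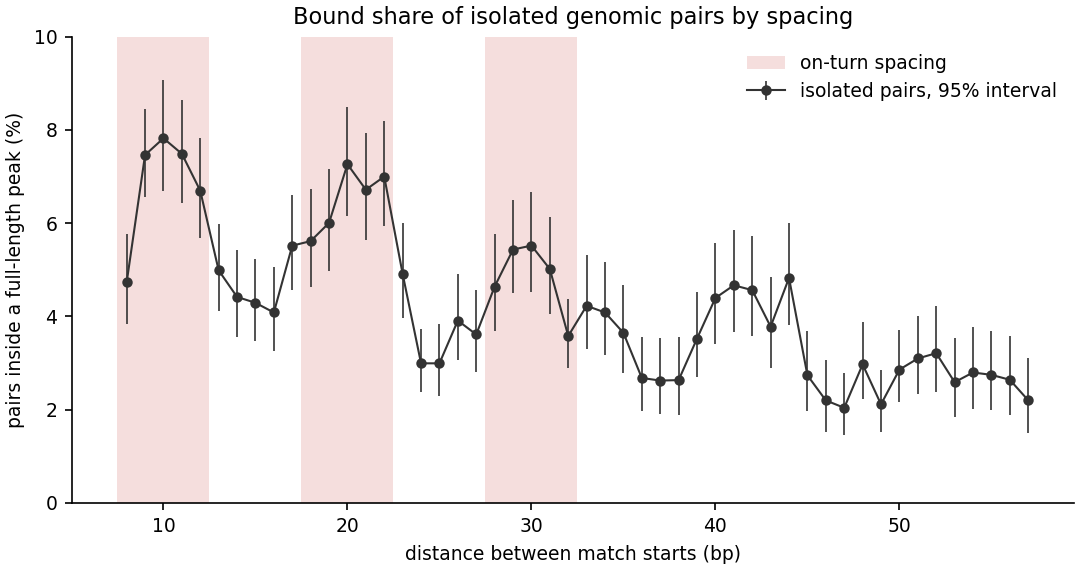
Percent of isolated genomic pairs inside a full-length peak against the distance between match starts in bp, with 95% Clopper-Pearson intervals and the on-turn windows shaded. The crests at 10, 20 and 30 bp reach 7.82%, 7.27% and 5.52%, and the share sinks to 2.99% at 24 and 25 bp. At 24 bp it is 5.02% in tandem, 1.997% in divergent and 1.17% in convergent pairs.

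Bound share differed with the base composition around the pairs and with the motif forms within them. On-turn and off-turn pairs were therefore also compared at like flank A/T content and at like direction and motif form. Bound share increased with the A/T content of the 400 bp outside the matches. When pairs were divided into 4 equal classes of A/T content, it was 2.44% on-turn and 1.27% off-turn in the class with the least A/T, and 10.3% and 7.57% in the class with the most. The ratios in the 4 classes, in order of A/T content, were 1.92, 1.67, 1.71 and 1.36, and each interval excluded 1. With on-turn and off-turn pairs averaged over the same A/T steps the ratio was 1.55, and over the same directions and motif forms it was 1.58. Among members, flank A/T content was 67.5% on-turn and 67.9% off-turn (difference -0.41 percentage points, 95% interval -0.82 to -0.0043). The spacer held 71.5% A/T on-turn and 74.0% off-turn (difference -2.55, -3.85 to -1.26). The part of spacer A/T content in the bound shares was not tested.

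How often a pair was bound differed with the direction of its motifs. Divergent pairs were bound in 6.14% of 14444 cases (95% interval 5.75 to 6.54%), tandem pairs in 5.36% of 30956 (5.11 to 5.62%) and convergent pairs in 3.42% of 14606 (3.13 to 3.73%). The on-turn to off-turn ratio was 1.77 (1.55 to 2.03) for divergent, 1.52 (1.38 to 1.68) for tandem and 1.33 (1.12 to 1.59) for convergent pairs. The divergent ratio was 1.33 times the convergent ratio (1.07 to 1.66), but this difference rested on the spacings of 24 and 32 bp, where pairs of 1 direction were unusually numerous in the genome and rarely bound. Without these spacings the ratios were 1.59 (1.39 to 1.83) for divergent and 1.45 (1.21 to 1.73) for convergent pairs, and the first was 1.10 times the second (0.88 to 1.38). A divergent pair at 10 bp was bound in 58 of 424 cases, or 13.7%, and at 20 bp in 45 of 446, or 10.1%, against 5.70% and 4.38% for convergent pairs at the same spacings.

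Convergent pairs had their own highest value at 17 bp, an off-turn spacing, where 37 of 555 were bound (6.67%), and stood at 6.24% at 29 bp. The wave fitted to convergent pairs alone had a period of 11.05 bp with a wide interval (10.25 to 11.85 bp). The period was 10.1 bp (9.8 to 10.45 bp) for divergent and 10.7 bp (10.45 to 10.95 bp) for tandem pairs. The first crest of the convergent wave lay at 18.47 bp, against 10.18 bp for tandem and 10.49 bp for divergent pairs. The odds at crest over trough were 1.80 for convergent, 1.85 for tandem and 2.02 for divergent pairs, without intervals. The on-turn windows were the same for all directions. The lower convergent on-turn ratio is therefore not read as a weaker wave. At 32 bp, 1399 of 2626 isolated pairs were convergent and 1.57% of these were bound. At 24 bp, 1202 of 2606 were divergent and 1.997% of these were bound. These spacings did not carry the difference in bound share between directions, which without them was 6.48% for divergent and 3.70% for convergent pairs, nor the overall on-turn ratio, which was then 1.57 (1.46 to 1.69).

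**Figure D3:**
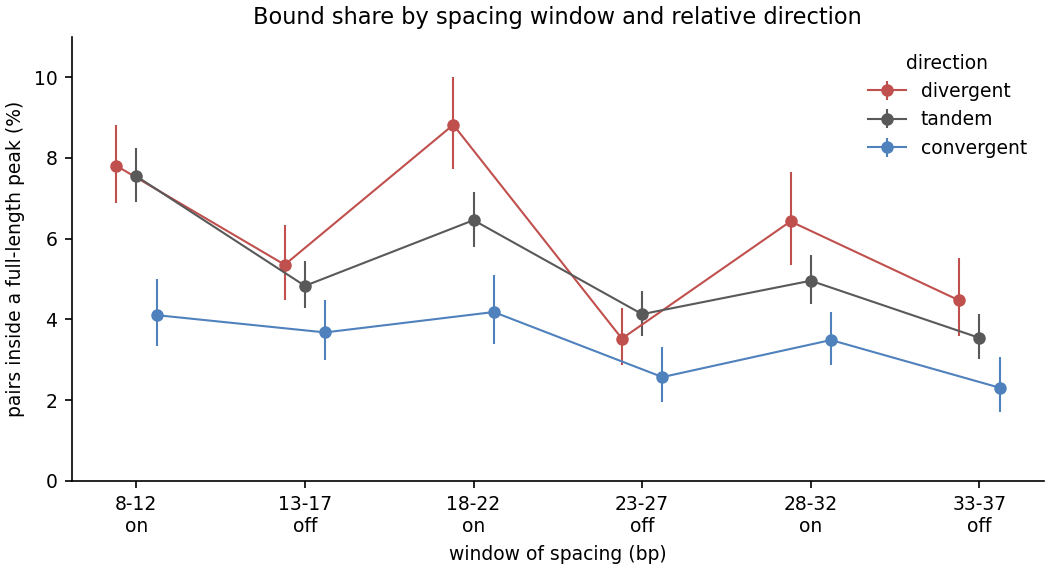
Percent of isolated genomic pairs inside a full-length peak in each of the 6 spacing windows in bp, for divergent, tandem and convergent pairs, with 95% intervals. Divergent pairs go from 8.82% at 18 to 22 bp to 3.52% at 23 to 27 bp (4.68% without 24 bp), and convergent pairs stay between 2.31% and 4.18% (4.97% at 28 to 31 bp).

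Within the members, direction differed little between on-turn and off-turn sites. Tandem pairs made up 54.7% of on-turn and 55.3% of off-turn members (difference -0.64 percentage points, 95% interval -4.55 to 3.29). Convergent pairs were 15.2% and 16.9%, and divergent pairs 30.1% and 27.8%, with both intervals of the difference including 0. Outside peaks the convergent share of isolated pairs was 25.4% on-turn and 24.04% off-turn, so members of either kind held fewer convergent pairs than unbound DNA. Mean fold enrichment was 8.54 (8.31 to 8.77) in tandem, 8.12 (7.68 to 8.55) in convergent and 8.22 (7.93 to 8.51) in divergent members, with overlapping intervals.

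The bound share also differed with the form of the motifs. Pairs in which both matches were CTAATAA were bound in 18.8% of 2006 on-turn cases and 9.13% off-turn, a ratio of 2.06 (1.77 to 2.41). Pairs in which both were TTAATAA were bound in 4.35% of 7450 on-turn cases and 3.27% off-turn, a ratio of 1.33 (1.12 to 1.57). The first ratio was 1.55 times the second (1.23 to 1.95), but without 24 and 32 bp the CTAATAA ratio was 1.54 (1.31 to 1.81), and it was then 1.15 times the TTAATAA ratio (0.91 to 1.46). The most frequent combinations were the same on-turn and off-turn: tandem CTAATAA with TTAATAA (237 on-turn and 132 off-turn members), tandem pairs of CTAATAA (205 and 118) and tandem pairs of TTAATAA (162 and 112). Both matches had the same form in 40.3% of on-turn and 42.9% of off-turn members (difference -2.63 percentage points, -6.52 to 1.25).

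Some short on-turn sites were copies of one sequence. Of the on-turn members 274 (16.2%) shared their whole sequence from first to last match with another member, against 24 (2.47%) of the off-turn members. Spacers of 1 to 5 bases, found only among on-turn members, can take few forms, so shared sequences are more likely there by construction. The following pairs are shown because they are all those found in 6 or more members. They were chosen after their values were seen.
Tandem, 9 bp apart, on-turn, 15 members: CTAATAAtaCTAATAA
Divergent, 9 bp apart, on-turn, 9 members: CTATTAGaaCTAATAA
Divergent, 9 bp apart, on-turn, 7 members: TTATTAGaaCTAATAA
Tandem, 9 bp apart, on-turn, 6 members: CTAATAAttCTAATAA
Divergent, 9 bp apart, on-turn, 6 members: TTATTAGagCTAATAA
Tandem, 8 bp apart, on-turn, 6 members: TTAATAAaTTAATAA
Divergent, 15 bp apart, off-turn, 6 members: CTATTAGccctgttaCTAATAA

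The first of these sequences occurred as an isolated pair 25 times in the genome, and 15 of the 25 (60%) lay in a full-length peak. The sequences were chosen for being in 6 or more members, which favours high bound shares where a sequence has few places. The shares below therefore describe these sequences only, and no interval is given for them. The other tandem pair 9 bp apart lay in a peak at 6 of its 15 places (40%), and the off-turn pair did so at all 6 of its places. The CTATTAGaaCTAATAA pair occurred 252 times and was bound at 10 of them (3.97%), and the pair 8 bp apart was bound at 7 of 125 (5.6%). The remaining divergent pairs were bound at 7 of 55 places (12.7%) and at 7 of 27 (25.9%). Members with the first sequence had fold enrichments from 4.91 to 23.4, with a mean of 8.24. Reads from near-identical copies can be lost in alignment, and the part of this in the bound shares was not tested. With the pairs limited to sequences that occurred once, bound shares were 5.96% on-turn and 4.01% off-turn, a ratio of 1.49 (1.38 to 1.61).

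The on-turn members were slightly more often N-C1 sites than the off-turn members. Of all full-length peaks 95.2% overlapped an N-C1 peak by at least 1 bp. For on-turn members this was 96.9% and for off-turn members 94.95%, a difference of 1.98 percentage points (0.45 to 3.70). The on-turn share was also above the off-turn share in the 3 weaker of the 4 strength classes, where the on-turn shares were 94.1%, 96.4% and 98.4% and the off-turn shares 91.3%, 93.5% and 96.6%. In the strongest class the shares were 98.8% and 98.4%.

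Overlap with the ∆HD list did not differ by spacing. It was 89.1% on-turn and 89.0% off-turn (difference 0.10 percentage points, -2.31 to 2.64), near the 88.6% of all full-length peaks. Both construct lists held 88.5% of on-turn and 88.5% of off-turn members. Neither held 2.54% of on-turn and 4.53% of off-turn members. Of the 2665 members, 14 overlapped a ∆HD peak but no N-C1 peak, and 205 overlapped an N-C1 peak but no ∆HD peak. These combined shares were not computed for all full-length peaks. Of all full-length peaks, 95.2% overlapped an N-C1 peak and 88.6% a ∆HD peak, so the unequal counts are not read as particular to members.

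Beyond the members, pairs found in peaks of a single construct differed in spacing between the constructs. Isolated genomic pairs inside an N-C1 peak but no ∆HD peak were on-turn in 2113 of 3217 cases (65.7%, 64.0 to 67.3%). Pairs inside a ∆HD peak but no N-C1 peak were on-turn in 579 of 1104 cases (52.4%, 49.5 to 55.4%), close to the 51.7% outside full-length peaks. The difference between these disjoint sets was 13.2 percentage points (9.87 to 16.6), and with pairs inside full-length peaks left out it was 13.4 (9.93 to 16.8). With pairs limited to sequences that occurred once it was 10.4 (6.61 to 14.2), from 57.3% and 46.9%. Pairs inside peaks of both constructs were on-turn in 60.9% of 5741 cases. A pair counted as inside only when a peak contained both matches, and the lists differed in peak width. The median width was 428 bp in the ∆HD list and 334 bp in the N-C1 list. The part of peak width in the difference between the disjoint sets was not tested.

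The bound share in N-C1 peaks alone followed the helical wave, at 7.99%, 4.30%, 7.11%, 3.40%, 4.92% and 3.87% over the 6 windows in order of spacing. In ∆HD peaks alone it was flat, at 1.78%, 1.88%, 1.80%, 1.70%, 1.96% and 1.93%, and the on-turn to off-turn ratio was 1.01 (0.89 to 1.13) against 1.75 (1.63 to 1.87) for N-C1 alone. Both sets came from weak peaks, with a median fold enrichment of 4.95 in the ∆HD list and 5.0 in the N-C1 list. Among pairs in the middle strength range of the ∆HD-only set, those also in an N-C1 peak were on-turn in 60.3% of 1408 cases. Those without one were on-turn in 52.9% of 577. In the middle strength range of the N-C1-only set, pairs also in a ∆HD peak were on-turn in 56.7% of 1391 cases. Those without one were on-turn in 64.5% of 1851. Each set is thus defined by the absence of a peak in the other list, and its on-turn share depends on that choice. With the whole lists and pairs outside full-length peaks, the on-turn to off-turn ratio was 1.25 (1.18 to 1.33) for ∆HD and 1.54 (1.46 to 1.61) for N-C1. The flat profile therefore belongs to the ∆HD-only set and not to the ∆HD list. The ∆HD-only pairs also had less A/T in their flanks, 63.5% against 67.6% for N-C1-only pairs and 64.4% for all isolated pairs. They were convergent in 27.5% of cases, against 17% of N-C1-only pairs and 24.3% of all. The part of base composition in the flat profile was not tested.

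**Figure D4:**
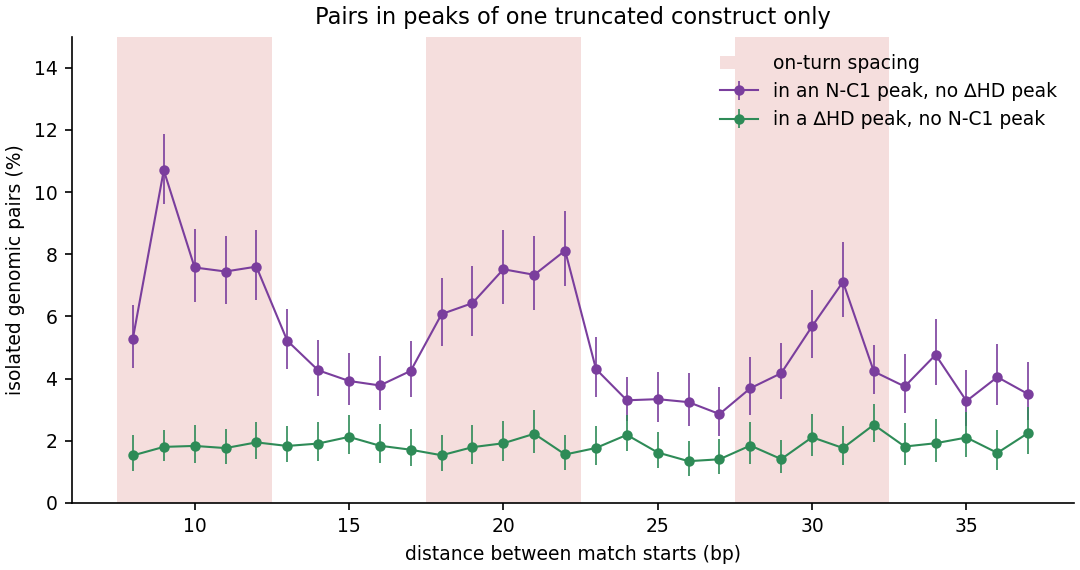
Percent of isolated genomic pairs that lay in a peak of a single truncated construct, N-C1 (purple) or ∆HD (green), against the distance between match starts in bp, with 95% intervals and on-turn windows shaded. N-C1-only pairs crest at 10.7% at 9 bp, 8.12% at 22 bp and 7.11% at 31 bp, while ∆HD-only pairs stay between 1.34% and 2.51%.

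The whole lists carried the wave in each condition. The ratio of on-turn to off-turn bound share was 1.53 (1.47 to 1.59) for N-C1, 1.34 (1.28 to 1.41) for ∆HD, 1.46 (1.36 to 1.57) after camptothecin and 1.44 (1.36 to 1.52) after ICRF-193, beside 1.55 for the untreated full-length list. The best period was 10.6 bp for N-C1, 10.4 bp for ∆HD, 10.7 bp after camptothecin and 10.6 bp after ICRF-193, and all 4 profile intervals lay between 10.2 and 10.95 bp. In the ∆HD list the convergent pairs had a ratio of 1.09 (0.98 to 1.20) and the divergent pairs one of 1.52 (1.40 to 1.66). In the N-C1 list they were 1.18 (1.08 to 1.30) for convergent and 1.75 (1.63 to 1.89) for divergent pairs. No wave was fitted by direction in these lists, so such ratios do not separate a weaker wave from a shifted crest. Without 24 and 32 bp the divergent ratio was 1.30 times the convergent ratio in both the ∆HD (1.13 to 1.50) and the N-C1 list (1.15 to 1.47), 1.24 times after ICRF-193 (1.05 to 1.47) and 1.08 times after camptothecin (0.87 to 1.35). The lists share many of the same pairs, so these values are set side by side and were not tested against each other.

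Among members, fold enrichment within each of the other lists was also alike for the spacing classes. In the N-C1 list the mean was 12.7 (SD 7.89, n = 1642) on-turn and 12.3 (SD 7.97, n = 922) off-turn, a difference of 0.35 (-0.29 to 0.99). In the ∆HD list it was 9.96 (SD 4.57, n = 1509) and 10.3 (SD 4.75, n = 864), a difference of -0.30 (-0.69 to 0.10). Each list has its own background, so levels are not compared between lists.

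Topoisomerase inhibition did not separate the members clearly by spacing. Of all full-length peaks 81.7% overlapped a peak of the camptothecin list and 92.9% one of the ICRF-193 list. The members overlapped less often, in 73.4% and 88.4% of cases, which was 9.35 percentage points (7.62 to 11.1) and 5.13 points (3.92 to 6.45) below the other full-length peaks. Peaks with exactly 1 match were similar to the members, at 72.5% and 88.5%, and peaks with exactly 3 matches stood at 82.7% and 93.8%.

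The camptothecin list overlapped 72.4% of on-turn and 75.2% of off-turn members (difference -2.81 percentage points, -6.21 to 0.69). The ICRF-193 list overlapped 87.7% and 89.6% (difference -1.88, -4.29 to 0.67). In isolated pairs inside full-length peaks, which differ from members in where the window is centred, 73.5% of on-turn and 76.9% of off-turn pairs were also in a camptothecin peak, and this interval ran from -6.47 to -0.17 points. Overlap depended on strength, since the camptothecin list held 46.9% of on-turn and 46.5% of off-turn members in the weakest class but 99.0% and 99.6% in the strongest. In the middle classes it held 60.4% and 83.4% of on-turn members and 65.2% and 89.3% of off-turn members. The on-turn and off-turn intervals overlapped in both, and differences within classes were not computed.

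Neither drug list held 10.0% of on-turn and 8.65% of off-turn members, and all 4 other lists held 63.4% and 65.7%. Of the 2665 members, 4 were in none of the other lists. The shares in neither drug list, in all other lists and in none were not computed for all full-length peaks. Mean fold enrichment in the camptothecin list was 8.20 (SD 4.47, n = 1226) on-turn and 8.19 (SD 4.11, n = 730) off-turn. In the ICRF-193 list it was 9.79 (SD 5.55, n = 1486) and 10.0 (SD 5.44, n = 870), a difference of -0.22 (-0.68 to 0.24). Some drug-list peaks with exactly 2 matches 8 to 37 bp apart overlapped no peak called in the untreated full-length list. These were on-turn in 61.6% of 591 cases for camptothecin and 61.1% of 1775 for ICRF-193.

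**Figure D5:**
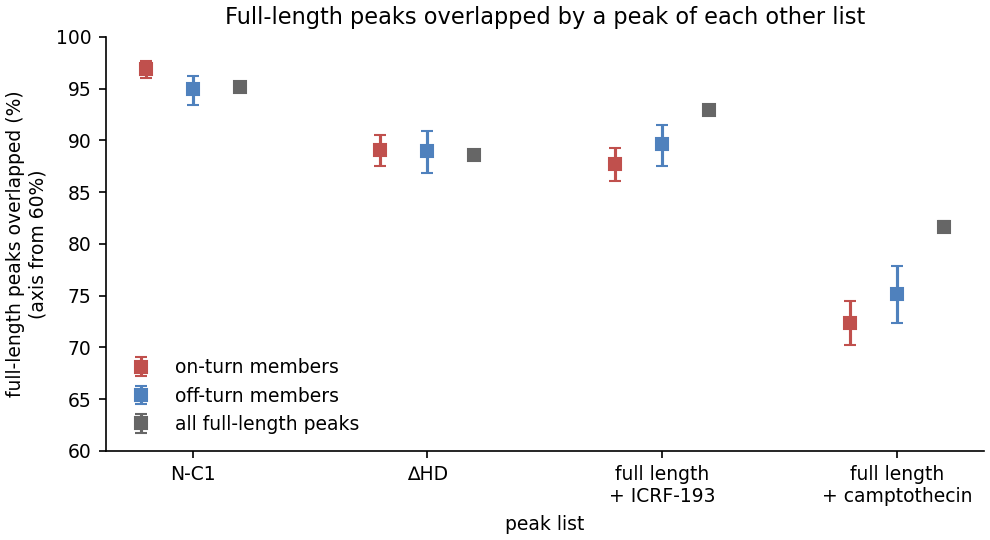
Percent of full-length peaks overlapped by a peak of each other list, for on-turn members (red), off-turn members (blue) and all full-length peaks (grey), with 95% intervals and the axis starting at 60%. On-turn and off-turn members are within 2.81 percentage points of each other in every list, and both fall below all peaks in the drug lists.

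The sites were mostly outside accessible chromatin whatever their spacing. A peak of the ATAC-seq list with Satb1 overlapped 4.25% of on-turn and 5.05% of off-turn members (difference -0.80 percentage points, -2.58 to 0.82), beside 4.64% of all full-length peaks. In the list without Satb1 the shares were 3.72%, 4.33% and 3.42%. By position, 57.7% of on-turn and 59.2% of off-turn members were intergenic and 40.1% and 40.2% were intronic, relative to GENCODE protein-coding transcripts. The middle of the pair lay on average 20.9 bp from the peak summit on-turn and 22.7 bp off-turn, and within 50 bp of it in 93.3% and 91.3% of members.

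The strongest members lay far above the median of 6.91. Members on chromosome 8 are not named here. The strongest of all, an on-turn convergent pair of TTAATAA 10 bp apart in an intron of CFAP47, a cilia and flagella associated gene, had fold enrichments of 47.5 in the full-length list, 9.53 in ∆HD, 26.7 in N-C1, 63.8 after camptothecin and 74.7 after ICRF-193. It was far above the on-turn median in the 3 full-length lists, above the N-C1 median of 10.6, and near the ∆HD median of 8.77. Its flanks were 80.8% A/T.

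The strongest 18 to 22 bp member, a divergent pair of CTAATAG 21 bp apart in an intergenic region of chromosome 12, reached 43.8 in the full-length list, 31.8 in ∆HD, 77.0 in N-C1, 37.2 after camptothecin and 42.3 after ICRF-193. It was high in all 5 lists. The strongest 28 to 32 bp member, a tandem pair of TTAATAA 30 bp apart nearest to the olfactory receptor gene OR5AS1, had 29.9, 23.7, 56.9, 23.8 and 27.4 in the same order of lists.

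Off-turn members reached similar heights. A tandem pair of TTAATAA 14 bp apart in an intron of NRDC, which encodes the metalloprotease nardilysin, had fold enrichments of 35.8 in the full-length list, 19.7 in ∆HD, 65.3 in N-C1, 31.9 after camptothecin and 33.4 after ICRF-193. A divergent pair of TTAATAG 26 bp apart nearest to NCEH1, a cholesteryl ester hydrolase gene, had 32.4, 10.1, 27.2, 22.4 and 31.7 in that order. A tandem pair of TTAATAA 33 bp apart nearest to TWSG1, which encodes a modulator of BMP signalling, had 31.2, 30.7, 61.2, 20.02 and 26.1. The pair printed above for this window, nearest to TNFAIP3, an inhibitor gene of NF-κB signalling, had 31.0, 14.1, 39.4, 24.7 and 32.5.

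The next 2 members of each window in order of strength had full-length fold enrichments from 26.0 to 37.5 on-turn and from 26.6 to 33.1 off-turn. On-turn they included sites in introns of GRIN3A, a glutamate receptor subunit gene, ADCK1, and EYS, a photoreceptor gene, and in intergenic regions nearest to PCDH15 and VGLL3. Off-turn all were intergenic, nearest to EDN1, the endothelin-1 gene, WDR72, BTBD3, TLR4, the lipopolysaccharide receptor gene, TNFAIP3 and HTR1B, a serotonin receptor gene. The 3 strongest 13 to 17 bp members, including the NRDC site, overlapped peaks in both ATAC-seq lists, and none of the other 15 strongest members did.

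The median member of each window had a full-length fold enrichment of 6.78 to 7.05. At 8 to 12 bp this was a tandem pair 10 bp apart on chromosome 1 with 6.91 in the full-length list, 6.51 in ∆HD, 12.6 in N-C1 and 6.36 after ICRF-193, and no camptothecin peak. At 33 to 37 bp it was a divergent pair 34 bp apart on chromosome 11 with 7.05, 10.9, 10.7 and 5.58 in the same lists, and again no camptothecin peak. At 28 to 32 bp it was a tandem pair nearest to the olfactory receptor gene OR1C1 with 6.78 in the full-length list, 6.74 in N-C1, 5.37 after camptothecin and 8.50 after ICRF-193, and no ∆HD peak. The other 3 medians, an off-turn pair in FRS2, an on-turn pair in RABGAP1L and an off-turn pair nearest to LRRTM3, had a peak in every list, between 5.37 and 10.7.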

How the data were processed

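ChIP-seq and ATAC-seq peak lists of MCF10A cells were used, 1 list per condition. Per the labels, the authors' processing notes name cutadapt, Bowtie2 and MACS2 with the builds hg19 and mm10, and no versions. The deposited lists hold fold enrichment as a ratio over background at the summit, and the authors' q-values as −log10 values. The study gives a range of read depth for its ChIP-seq libraries but not the depth of each list, and the number of peaks called can depend on it. The mouse VL3 Satb1 list came from an antibody against Satb1.

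Consensus matches were exact matches in GRCh37, whose chromosomes have hg19 names. Overlaps needed 1 bp. An isolated pair was bound when a peak contained both matches. Shares carry Clopper-Pearson, differences of shares Newcombe, differences of means normal, and ratios log-normal 95% intervals. The wave was a binomial logistic fit with periods from 8 to 14 bp in steps of 0.05 bp. Promoters reached from 1000 bp upstream to 100 bp downstream of GENCODE 44 starts.

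Named members were the 3 strongest and the median member in each spacing window, with chromosome 8 left out. The members and lists were chosen with earlier results of these data known, including the spacing near 10 bp. The functions were tested on simulated data. Tools were Python 3.11.15, numpy 2.4.6, pandas 2.3.3, scipy 1.17.1, statsmodels 0.14.6, matplotlib 3.10.9 and bedtools 2.31.1. Alternatives covered the windows, the helical repeat, the search window and centre, peak thresholds and other lists. Of the mouse VL3 lists the Satb1 list was used, and those of the constructs were not used here.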

Additional observations from a re-analysis of the deposited data

How the results depend on the processing

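Over 16 results and 131 alternative values, 113 stayed within the 95% interval of the reported value, among them all 8 alternatives of the full-length fold enrichment difference. With the 8 to 12 bp window left out and the others weighted so that both classes had the same mean spacing, the on-turn share of members was 60.5% and that outside peaks 50.2%, and the bound share differed by 1.77 percentage points. With the slightly longer helical repeat of B-form DNA, which makes more of the spacings on-turn, the shares were 68.5% and 57.8%, and the tandem share differed by 3.50 points. The on-turn share was 56.8% for neighbouring matches in peaks with 3 or more matches, 60.5% in the ∆HD list, 58.3% there without an overlapping full-length peak, 61.6% in camptothecin peaks and 61.1% in ICRF-193 peaks without one, 59.9% in mouse VL3 Satb1 peaks on mm10, and 61.3% with each pair sequence counted once. The other alternatives here, the comparisons limited to sequences that occurred once and those without 24 and 32 bp were added after seeing the data. Among pair sequences that occurred once, 44.7% of those outside peaks were on-turn, below rather than above 50%, since short spacers repeat more often by construction. Limited to once-only sequences, the divergent to convergent comparison of on-turn ratios gave 1.25 (0.98 to 1.58) and that of the CTAATAA and TTAATAA pairs 1.22 (0.95 to 1.58) in the full-length list. The bound share differed by 3.33 points in the ∆HD list, 6.19 in the N-C1 list, 2.92 in the ICRF-193 list and 0.511 in the mouse list.

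No paired analysis was possible because each condition had 1 list. The depth of each list is not given, so how many weakly bound pairs each list missed cannot be stated. The intervals take pairs as independent, which copies of repeats are not.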

Other observations

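The spacing preference also appeared in the mouse thymocyte line VL3. In its Satb1 peaks with exactly 2 matches 8 to 37 bp apart, 394 of 658 (59.9%, 95% interval 56.0 to 63.6%) were on-turn, while 51.1% of isolated pairs of mm10 outside those peaks were. Isolated mouse pairs were bound in 1.83% of on-turn and 1.32% of off-turn cases, a ratio of 1.39 (1.19 to 1.61).

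Members in exons were rare, at 1.09% of members beside 1.08% of all full-length peaks. Of the on-turn members 26 (1.53%) and of the off-turn members 3 (0.31%) lay in an exon of a protein-coding transcript, a difference of 1.23 percentage points (0.46 to 1.96) among 4 kinds of position compared. Outside full-length peaks, exons held 1.47% of on-turn and 1.73% of off-turn isolated pairs. The exonic on-turn members, named after their values were seen, included sites in HDAC9, a histone deacetylase gene, TBC1D15, CNTLN and FGF12. Their fold enrichments were 7.46, 12.7, 12.5 and 10.3, and the sites in TBC1D15, CNTLN and FGF12 were among the strongest of the exonic on-turn members. The strongest exonic on-turn member, at 16.9, lay on chromosome X where LAS1L and ZC3H12B overlap.

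A further match inside the peak but beyond the 400 bp was present in 3.13% of on-turn and 3.91% of off-turn members.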
